A study of Mus musculus with 5 samples.

Results

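The genes described here act in DNA methylation: Dnmt1, Dnmt3a, Dnmt3b, Uhrf1 and Mbd2. They are 5 of the 17024 gene symbols that the authors' lists of chromatin immunoprecipitation sequencing (ChIP-seq) regions name. A region was taken as belonging to one of them when a list assigned it to the gene or when it lay within 5 kb of a transcription start that the lists give for the gene. By this rule 11 of 22255 H3K4me3 regions in diluent cells, 14 of 25723 H3K4me3 regions in SAHA cells, 0 of 3507 STAT3 regions in diluent cells and 1 of 8552 STAT3 regions in SAHA cells belonged to them. The genes were chosen by measured values of these libraries, among them the H3K4me3 regions of Dnmt3a that the diluent list holds and the SAHA list does not, so what follows is a description of the libraries.

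The cells were dendritic cells grown from the marrow of C57BL/6 female mice aged 10 weeks, cultured for 7 days with 10 ng/mL of GM-CSF and 10 ng/mL of IL-4, and then selected for CD11c at a stated purity of 95%. They were kept for 12 hours with diluent or with SAHA (vorinostat, an inhibitor of histone deacetylases) at a dose labelled 500 nm, in serum-free medium. Each of 5 groups had 1 library: H3K4me3 in diluent, H3K4me3 in SAHA, STAT3 in diluent, STAT3 in SAHA, and IgG in diluent, which was the only control used here. How many mice gave marrow to a library is not stated in the labels, and no difference between conditions has a replicate check.

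Dnmt1 copies the methyl groups of CpG dinucleotides onto the new DNA strand after replication, and Uhrf1 brings it to hemimethylated sites. Dnmt3a and Dnmt3b add methyl groups to DNA that carries none. Dnmt3a is known for a long form, made from an upstream promoter, and a shorter form, made from a promoter inside the gene. Mbd2 binds methylated DNA and brings in a repressor complex that contains histone deacetylases, the enzymes that SAHA inhibits. H3K4me3 is a histone mark of active promoters, and the domain by which Dnmt3a and Dnmt3b read histone H3 binds the tail that lacks this mark.

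The starts of these genes differed in CpG content, and 4 windows are shown: those of the most upstream and the internal RefSeq starts of Dnmt3a and of the start of Dnmt3b, for the genes' promoters with H3K4me3, and that of a Dnmt1 start where no region was listed. Each window covers 200 bases, from 250 to 51 bases before a RefSeq start in GRCm38.p6, and is read 5′ to 3′ on the gene's strand with every CG in capitals. The Dnmt3a windows are chr12:3806730-3806929 and chr12:3891494-3891693 on the plus strand, the Dnmt3b window is chr2:153649199-153649398 on the plus strand, and the Dnmt1 window is chr9:20959939-20960138 on the minus strand.
Dnmt3a upstream start: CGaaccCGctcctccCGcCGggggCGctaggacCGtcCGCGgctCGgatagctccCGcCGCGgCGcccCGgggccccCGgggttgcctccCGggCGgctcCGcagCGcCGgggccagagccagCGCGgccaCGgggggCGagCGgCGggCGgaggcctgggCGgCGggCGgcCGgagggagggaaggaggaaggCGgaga
Dnmt3a internal start: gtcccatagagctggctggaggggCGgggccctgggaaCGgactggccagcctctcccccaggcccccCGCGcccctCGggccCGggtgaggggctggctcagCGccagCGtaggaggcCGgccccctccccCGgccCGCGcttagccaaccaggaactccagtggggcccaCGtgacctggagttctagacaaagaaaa
Dnmt3b start: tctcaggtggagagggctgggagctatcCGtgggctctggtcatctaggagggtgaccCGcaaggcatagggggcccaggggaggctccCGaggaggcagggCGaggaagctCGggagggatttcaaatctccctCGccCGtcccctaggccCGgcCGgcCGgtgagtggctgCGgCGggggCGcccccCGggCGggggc
Dnmt1 upstream start: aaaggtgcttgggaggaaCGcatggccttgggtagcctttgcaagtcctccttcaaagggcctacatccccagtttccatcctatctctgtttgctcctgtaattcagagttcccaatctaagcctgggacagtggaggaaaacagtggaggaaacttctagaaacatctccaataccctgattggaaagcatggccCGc
The Dnmt3a upstream window held 32 CG, more than 98.6% of the 32817 promoter windows of the same length in the RefSeq table, whose median was 4. The internal Dnmt3a window held 13 CG (more than 77.9% of windows), the Dnmt3b window 15 (82.2%) and the upstream Dnmt1 window 2 (24.7%). Of the other Dnmt1 windows, the one at the downstream start held 21 CG (91.6%). The 2 windows of Uhrf1 held 7 and 24 CG (61.7% and 94.4%). The motif TTCNNNGAA, the palindromic letters that STAT proteins bind, which read the same on both strands, was in none of the 9 windows of these 4 genes and in 5.76% of all windows. No window of Mbd2 was examined. The lists use mm9 and the RefSeq table GRCm38.p6, so starts were matched by spacing alone. The Dnmt3a starts 84584 bp apart and the Dnmt1 starts 7265 bp apart are in both. Dnmt3b and Uhrf1 each have a single listed start, so spacing could not match theirs. The upstream Dnmt3a window belongs to a further RefSeq start, 180 bp before the matched one, that no listed start equals by spacing. The window of the matched start, which is not shown, held 34 CG (more than 99.2% of windows).

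The H3K4me3 libraries held 24364949 reads in diluent and 22684718 in SAHA, with 22420200 and 21428355 tags after filtering. The labelled cell type was checked by H3K4me3 at marker genes: all 7 dendritic cell markers with a listed start (of 8) carried a region within 5 kb in both libraries, as did 3 of 3 macrophage markers, 1 of 3 neutrophil and mast cell markers (Elane), 1 of 2 T cell markers (Lck) and 0 of 1 NK cell marker. Whether other cells contributed to any value below was not tested. No IgG region overlapped a region of the 5 genes, and the nearest lay 133 kb from the start of Dnmt3b.

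All 5 genes carried H3K4me3 over a listed start in both libraries. Of the 14112 protein-coding genes that the lists name (the scored genes), 83.1% had a region within 5 kb in both. A gene with no assigned region in any list is not among the scored genes, which raises this share and the STAT3 shares below. Dnmt3a differed from the other 4 genes in how many regions it carried: 6 in each library, against 1 to 3 for the others. Its longest listed transcript spans 107284 bp, against 19174 to 57840 bp for theirs, and the numbers were not scaled to length. Of the 11 regions in diluent, 2 overlapped no SAHA region, both in Dnmt3a, where 5.37% of all diluent regions had no overlap. In the other direction, 4 of the 14 regions in SAHA were absent from the diluent list (1 in Dnmt3a, 1 in Dnmt1 and 2 in Mbd2), beside 17.8% of the whole SAHA list. The assigned region just inside 5 kb of a start was at Mbd2, 3241 bp away, and the one just outside was at Dnmt1, 5780 bp away. No region assigned to another gene came nearer to a start of the 5 genes than 12.2 kb.

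Dnmt3a, which sets new DNA methylation, had more H3K4me3 tags at both of its promoters in the SAHA library. At the upstream promoter (mm9 chromosome 12, 3805736 to 3808812) the diluent library had 1 region of 3077 bp with 370 tags. The SAHA library had 2 adjoining regions there, 3805741 to 3807754 with 237 tags and 3807773 to 3809166 with 253 tags, together 490 tags over 3408 bp. Scaled to the filtered tags of each library, the log2 ratio of SAHA over diluent was 0.47 (95% interval 0.27 to 0.67), and it was 0.32 per kb of called region. The interval is the exact conditional binomial one and covers the counting error of 2 libraries alone. It lay above 0 at 24.2% of all 17704 regions paired 1 to 1 between the libraries, and below 0 at 24.3%. For the pair nearest a listed start within 5 kb, it lay above 0 at 20.5% of 10747 genes and below 0 at 31.3%. In SAHA the denser of the 2 regions was the downstream one, with 181 tags per kb against 118 in the one over the listed starts.

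At the internal promoter (3890736 to 3892746 in diluent and 3890677 to 3893049 in SAHA) the counts were 281 and 355 tags. The log2 ratio was 0.40 (interval 0.17 to 0.63), and per kb it was 0.16 with an interval of -0.07 to 0.39, since the SAHA region was 2373 bp wide and the diluent region 2011 bp. In both libraries the summit lay upstream of the internal start, at -338 bp in diluent and -249 bp in SAHA. A further region, 28.2 kb inside the long transcript (3833903 to 3835419 in diluent), went from 107 to 141 tags, a log2 ratio of 0.46 (interval 0.09 to 0.84) and 0.26 per kb. These 3 loci together had 758 tags in diluent and 986 in SAHA, a log2 ratio of 0.44 (interval 0.31 to 0.58). Each was below the 2-fold level, which 4.96% of all paired regions reached upward in SAHA and 1.01% downward. Of all paired regions, 83.8% had a lower ratio than the upstream promoter, 83.6% than the region at 28.2 kb and 81.4% than the internal promoter.

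At 2 places between the Dnmt3a promoters, the diluent list held a region and the SAHA list held none. A diluent region at 3860483 to 3862579, 55.0 kb downstream of the upstream start, held 259 tags over 2097 bp, and no region of the SAHA list overlapped it. The SAHA table called without a control did hold an entry there, 3861594 to 3862095, with 19 tags over 502 bp. The entry covers a part of the diluent region, and the SAHA tags in the rest of it are not listed, so no ratio was formed. A second diluent region, at 3872869 to 3875147 and 67.5 kb downstream, held 189 tags over 2279 bp, and neither SAHA file had a region over it. The SAHA table lists called regions alone and its entries begin at 15 tags, so the SAHA tags at this place are unknown too. These differences chose the gene and are given without a test.

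The diluent-only regions were about as dense in tags as the Dnmt3a promoters, or less so. The region at 55.0 kb had 124 tags per kb, beside 120 at the upstream promoter and 140 at the internal one, and the region at 67.5 kb had 82.9. The first lay inside both long transcripts of the lists, which begin at 3806523 and 3807160 and end at 3867484 and 3914443. The second lay beyond the end of the former and inside the latter. Whether these positions are exonic or intronic was not analysed here. In the SAHA list a narrow region at 3870741 to 3871511, with 34 tags over 771 bp, lay 1357 bp upstream of the place of the second region and overlapped nothing in diluent. The remaining Dnmt3a region, 50.02 kb downstream, was listed in both libraries at low scores, 63.2 in diluent and 51.89 in SAHA, and had 23 tags in SAHA and no count in the diluent table.

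**Figure D1:**
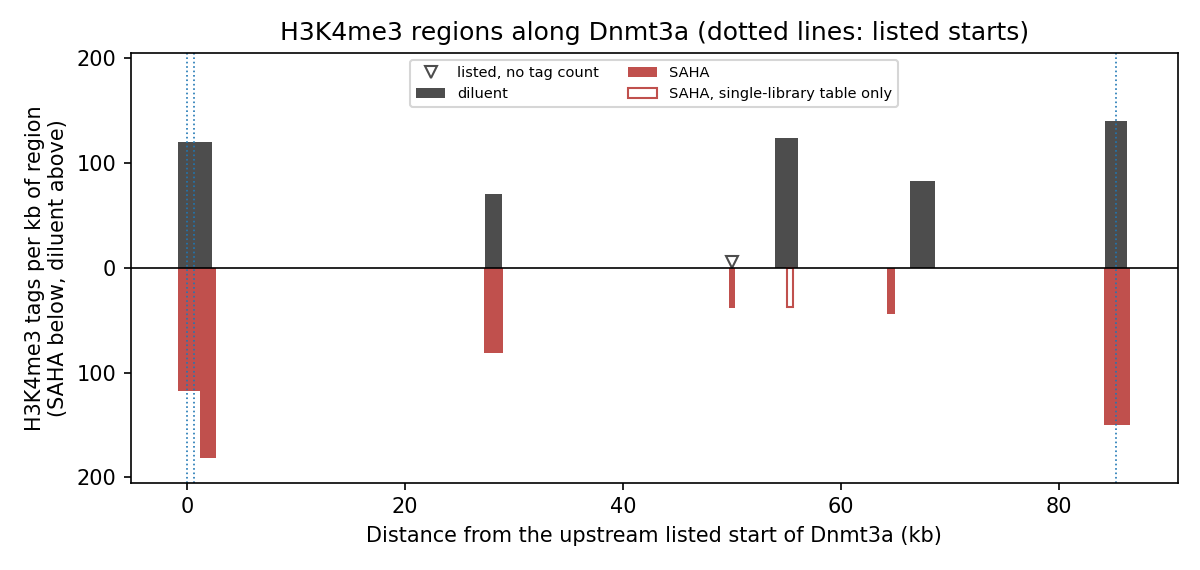
H3K4me3 regions along Dnmt3a, with tags per kb of region (not scaled for depth) upward for the diluent library and downward for the SAHA library, against the distance in kb from the upstream listed start. Bars are drawn at the regions' true widths, the open bar is the SAHA entry missing from the list against IgG, and the open triangle is a listed region with no tag count. The diluent bars at 55.0 and 67.5 kb have no filled SAHA bar opposite them, while the bars at both promoters and at 28.2 kb are present in both.

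The sum over the gene depended on what was counted. The Dnmt3a regions with a count held 1206 tags over 10981 bp in diluent and 1062 tags over 9397 bp in SAHA, a log2 ratio of -0.12 (interval -0.24 to 0.00) and 0.11 per kb. Without the SAHA table entry that the list does not hold, the ratio was -0.14. Both sums include the 2 diluent-only regions by which the gene was chosen, so neither ratio is a test. The 3 loci with counts in both lists had a ratio of 0.44. The regions were called separately in each library. The sums leave out the diluent tags of the region at 50.02 kb and the SAHA tags at 67.5 kb, which are unknown. They also lack the diluent tags at the SAHA-only region at 64.6 kb. At 55.0 kb the SAHA sum of 1062 holds only the 19 tags of an entry over 502 bp. The diluent sum holds there the 259 tags of a region over 2097 bp. The 2 diluent-only regions held 448 of the 1206 diluent tags, a share of 37.1% that describes the regions by which the gene was chosen.

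Among the 1196 diluent-only H3K4me3 regions of the whole list, the region at 55.0 kb in Dnmt3a ranked 1 by score in the authors' deposited list, and the one at 67.5 kb ranked 6. By tags they ranked 2 and 6 among the 929 with a count. The median diluent-only region was 672 bp wide, and the 929 with a count had a median of 30 tags. Of the 1196, 122 lay over an entry of the SAHA table, as the first Dnmt3a region did. Genes with at least 2 diluent-only regions assigned to them numbered 65 of 12694, or 0.512%. These ranks describe values by which Dnmt3a was chosen.

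**Figure D2:**
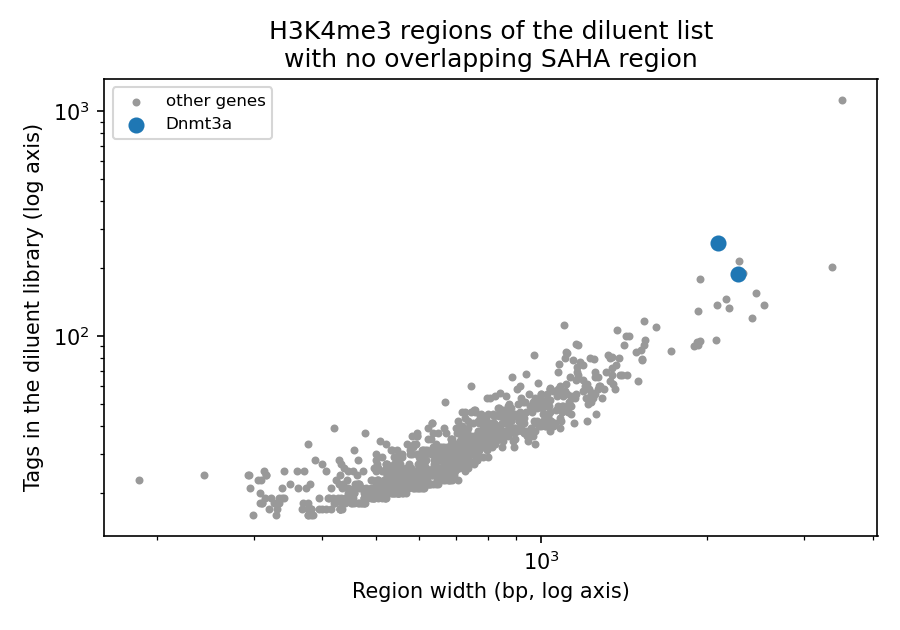
The 929 diluent-only H3K4me3 regions that have a tag count, with their width in bp on the x axis and their tags in the diluent library on the y axis, both on log scales. The Dnmt3a points, at 259 and 189 tags, stand among the few regions wider than 2 kb, far above the median of 30 tags.

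The gene whose pattern was most like that of Dnmt3a was Fto, an RNA demethylase gene, with the same numbers of assigned regions: 2 diluent-only, 1 SAHA-only and 4 shared. Its summed tags were 1274 in diluent and 1208 in SAHA. Plekhf2 (2, 1 and 3 regions) and Atg4c (1, 1 and 4 regions) followed, each 1 region away in the sum of the absolute differences. This likeness rests on 2 libraries and on counts of called regions.

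Dnmt1, the maintenance methyltransferase, had nearly the same H3K4me3 at its promoter in both libraries. The region over its downstream start (chromosome 9, 20754781 to 20757983 in diluent) held 1351 tags in diluent and 1234 in SAHA. The log2 ratio was -0.07 (interval -0.18 to 0.05), and 0.08 per kb, since the SAHA region was 2887 bp wide and the diluent one 3203 bp. The summits lay at -120 and -110 bp from the start. No region covered the upstream listed start of Dnmt1, at 20764332, the place of the window shown above with 2 CG. The nearest to it, 6169 bp upstream in diluent (20770501 to 20771958), went from 77 to 88 tags, a log2 ratio of 0.26 with an interval of -0.20 to 0.72. A SAHA-only region of 750 bp inside the gene, at 20750538 to 20751287, had a score of 62.23 and no tag count.

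Uhrf1, which guides Dnmt1 to hemimethylated CpG, had fewer tags in SAHA. Its region (chromosome 17, 56442321 to 56444646 in diluent) held 958 tags in diluent and 779 in SAHA over 2326 and 2424 bp. The log2 ratio was -0.23 (interval -0.37 to -0.10), and -0.29 per kb. Dnmt3b, the other de novo enzyme, had 622 tags in diluent and 533 in SAHA at chromosome 2, 153474473 to 153476691 in diluent, a log2 ratio of -0.16 (interval -0.33 to 0.01) and -0.08 per kb. Of all paired regions, 18.1% had a lower ratio than Uhrf1 and 27.2% a lower one than Dnmt3b. Among the pairs nearest the starts of 10747 genes, 31.3% had an interval below 0 and 20.5% above 0.

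Mbd2, the reader of methylated DNA, had the most promoter tags of the 5 genes in both libraries and fewer in SAHA than in diluent. The region over its start (chromosome 18, 70727314 to 70730752 in diluent) held 1543 tags in diluent and 1292 in SAHA over 3439 and 3686 bp. Its log2 ratio was -0.19 (interval -0.30 to -0.08), and -0.29 per kb. The SAHA list held 2 further Mbd2 regions downstream of it, at 70731187 to 70731871, 434 bp from the diluent region and without a tag count, and at 70735913 to 70736955 with 47 tags. Neither overlapped a diluent region, and with a gap of up to 1 kb taken as shared the former would count as shared.

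Promoter H3K4me3 ordered the genes alike in both libraries, apart from the highest. Per kb of region in the diluent library, Mbd2 had 449 tags (95% Poisson interval 427 to 472), Dnmt1 422 (400 to 445), Uhrf1 412 (386 to 439), Dnmt3b 280 (259 to 303), the internal Dnmt3a promoter 140 (124 to 157) and the upstream one 120 (108 to 133). The intervals of Mbd2, Dnmt1 and Uhrf1 all overlapped each other, as did those of the 2 Dnmt3a promoters, and those of Uhrf1, Dnmt3b and Dnmt3a were apart. In the SAHA library Dnmt1 had 427 (404 to 452), Mbd2 351 (332 to 370), Uhrf1 321 (299 to 345), Dnmt3b 253 (232 to 276), and the Dnmt3a promoters 150 (134 to 166) and 144 (131 to 157). There Mbd2 and Uhrf1 overlapped, as did the Dnmt3a promoters, and Dnmt1 lay above the rest. The median of all paired regions in diluent was 221 tags per kb, above both Dnmt3a promoters and below the other 4 genes.

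**Figure D3:**
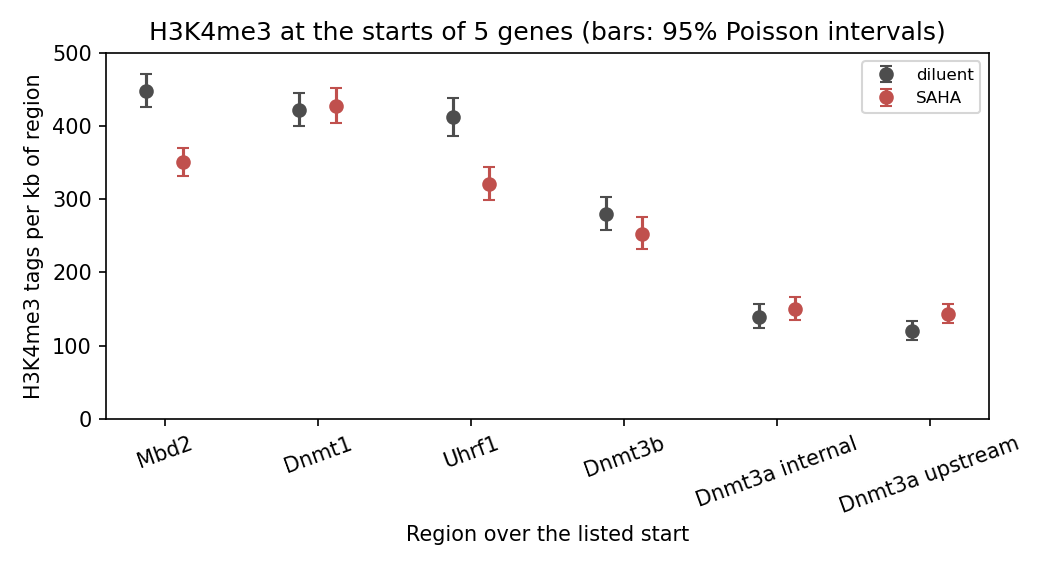
H3K4me3 tags per kb of region over the listed starts, not scaled for depth, for the diluent library (grey) and the SAHA library (red), with 95% Poisson intervals for counting error. Mbd2, Dnmt1 and Uhrf1 lie above 300 in both libraries, Dnmt3b at 280 and 253, and the Dnmt3a promoters between 120 and 150.

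**Figure D4:**
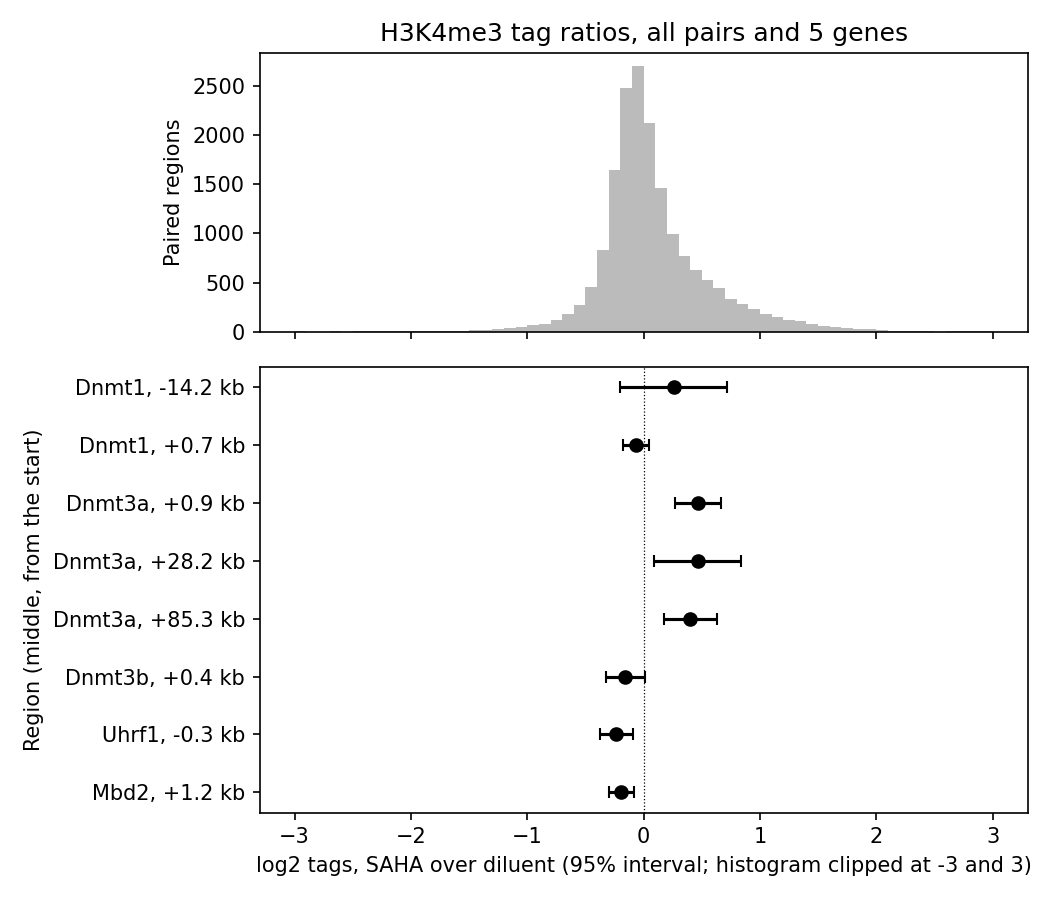
Above, a histogram of the log2 tag ratio of SAHA over diluent at the 17704 paired H3K4me3 regions. Below, the same ratio at each region of the 5 genes listed with tags in both libraries, with its 95% interval and its distance from the upstream listed start of Dnmt3a or from the start under the promoter region of the other genes. The points lie between -0.23 and 0.47, with those of Dnmt3a highest.

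STAT3, the cytokine-activated transcription factor of the study, had 1 region at these genes. It lay at Dnmt3b in the SAHA list, at chromosome 2, 153475326 to 153475933, with its middle 439 bp downstream of the start and inside the H3K4me3 region of both libraries. Its score in the authors' deposited list was 33.13, where the list begins at 30. It had no tag count because the STAT3 table called without a control held no entry with the same ends. The nearest diluent STAT3 region on the chromosome was 672 kb from that start. Such a region lay within 5 kb of 18.3% of scored genes in SAHA and 6.39% in diluent, and 1 and 0 of 5 genes were near those shares. At the other 4 genes the nearest SAHA region was 22.2 kb (Uhrf1), 33.8 kb (Dnmt3a), 34.5 kb (Dnmt1) and 62.6 kb (Mbd2) from a start, and the nearest diluent region at least 75.3 kb. The Dnmt3b window printed above ends before the RefSeq start, which was not matched to the listed start. Whether this window covers the STAT3 region was not checked.

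The wider set of 22 DNA methylation genes all carried H3K4me3 within 5 kb of a start in both libraries. For 19 of them, the 1 to 1 pair nearest a listed start, within 5 kb, was taken as the start pair. Such a pair need not cover the start. Of the 19, 3 had an interval above 0 and 6 below 0, where 20.5% and 31.3% of 10747 genes did. None of the 19 reached 2-fold in either direction, a level that 2.25% of genes reached upward and 0.475% downward. The median log2 ratio was -0.07 for the set and -0.05 for all genes with a start pair. Per kb of called region the median was -0.20 for the set, beside -0.07 for all paired regions. The latter include regions away from starts, so these 2 medians are not over like sets.

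Those higher in SAHA were Zfp57, which protects imprinted methylation, with 32 and 53 tags in diluent and SAHA, and 2 genes of enzymes that oxidise methylcytosine. Tet1 had 69 tags in diluent and 103 in SAHA, a log2 ratio of 0.64 (interval 0.19 to 1.10). This gene had 2 diluent and 3 SAHA regions within 5 kb, and whether the pair covers its start was not checked. Tet3 had 551 and 733, a ratio of 0.48 (0.32 to 0.64) that was 0.10 per kb. The third such enzyme, Tet2, had 2156 and 2140 tags (log2 0.05, interval -0.03 to 0.14). Those lower in SAHA were led by the repair glycosylase Tdg, from 988 to 754 tags (log2 -0.32, interval -0.46 to -0.19). Mbd4, another repair glycosylase of the methyl-binding family, went from 1336 to 1043, and Mat2a, which makes the methyl donor, from 2105 to 1681. Trdmt1, Mbd3 and Ahcy were the remaining 3.

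Among the H3K4me3 regions assigned to these 22 genes, 9 were SAHA-only, 1 was diluent-only (at Tdg) and 37 diluent regions were shared, where 17.8% of all SAHA regions and 5.37% of all diluent regions were found in 1 library alone. STAT3 regions within 5 kb were present at 3 of the 22 genes in SAHA (Dnmt3l, a cofactor of the de novo enzymes, Tet1 and Tet2) and at 1 in diluent (Tet2), beside 18.3% and 6.39% of all scored genes. At Tet2 they were different regions, centred at 293 bp from the start in SAHA and at -4261 bp, upstream, in diluent. In the SAHA list, which begins at a score of 30, the regions scored 43.18 at Dnmt3l, 34.36 at Tet1 and 38.35 at Tet2. The Tet1 region was centred 4799 bp from the start.

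**Figure D5:**
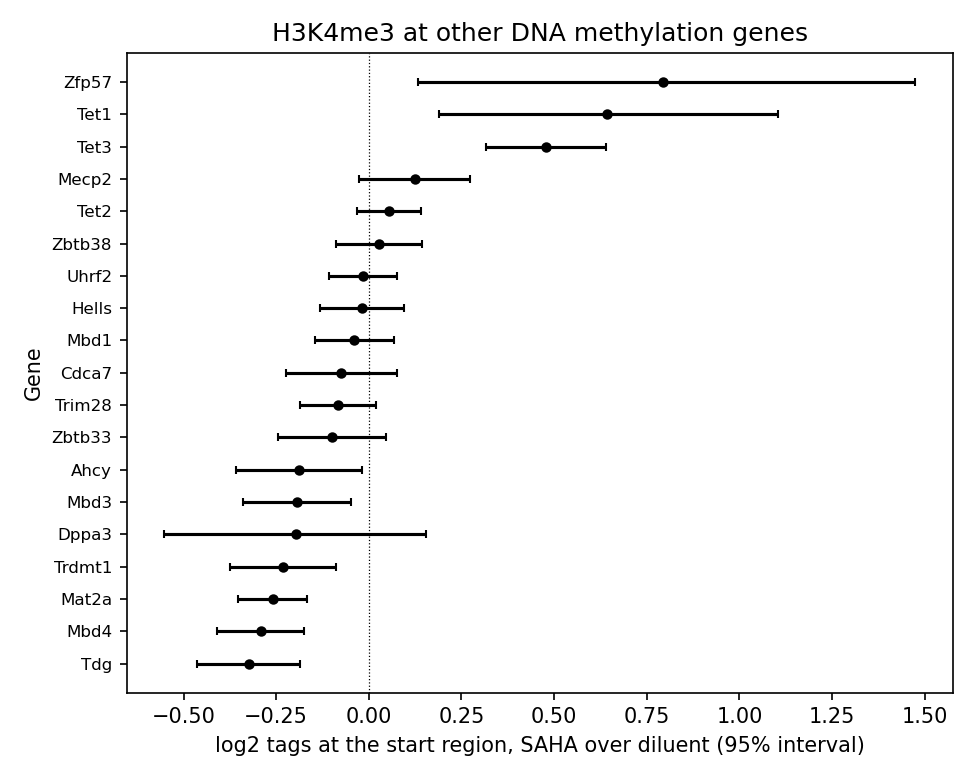
The log2 ratio of H3K4me3 tags, SAHA over diluent, at the start region of 19 other DNA methylation genes, with 95% intervals for counting error. Zfp57, Tet1 and Tet3 have intervals above 0, and 6 genes, Tdg lowest, have intervals below 0.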

How the data were processed

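The submitters' processing notes name BWA, with no version, and the mm9 build for the reads of 38 bases. MACS 1.4.0rc2 made a table for every library with no control file, a p-value cutoff of 1e-05 and up to 2 tags kept at 1 position, per the file headers. These deposited tables give a tag count, a fold enrichment (a ratio over local background) and a score per region. The fragment length in the H3K4me3 headers was 163 bp in diluent and 156 bp in SAHA. The authors' deposited lists against IgG give a MACS score and a gene per region; how they were called is not stated there. Library totals came from the deposited FastQC tables.

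List starts were made 1-based. A list region took the tag count of the table entry with the same ends, which 20244 of 22255 diluent and 22114 of 25723 SAHA H3K4me3 regions had. Regions were shared at 1 bp of overlap. Ratios were scaled to filtered tags, with exact conditional binomial 95% intervals. These were tried on simulated Poisson counts alone, which hold no duplicates, no variation between replicates and no region calling. The deposited percent of duplicate reads was 24.9 to 32.6 in the ChIP libraries and 16.2 in IgG, so tags are not all independent molecules. Symbols were matched to RefSeq names of GRCm38.p6, and 86.5% of 17024 matched. Analyses used Python 3.11.15, scipy 1.17.1, numpy 2.4.6 and pandas 2.3.3.

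Marker lists of some other cell types are not reported here. The genes, lists and tests were chosen with earlier results of these data known. Named were all regions of the 5 genes; of 22 other genes, up to 4 each with a start region in 1 library, a 2-fold ratio or a STAT3 region; and the 3 genes most like Dnmt3a. The genes of the set whose intervals excluded 0, Tet2's ratio and the diluent-only region at Tdg were named after their values were seen.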

Additional observations from a re-analysis of the deposited data

How the results depend on the processing

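Of 42 alternative values for 13 results, 37 stayed within 1.5 times the reported count or within the reported interval, and 5 moved. Counted per kb of called region, the ratio became 0.084 at the Dnmt1 start, 0.16 at the internal Dnmt3a start and 0.11 over all Dnmt3a regions. With a score of at least 40, 0 STAT3 regions of these genes were left in SAHA. With the single-library tables in place of the lists, chosen after seeing the data, 1 diluent-only region was left, the Dnmt3a one at 67.5 kb. Scaling to total reads, or setting the median of all pairs to 0, changed no direction among the 7 ratios. The ratios at Dnmt1 and over all of Dnmt3a changed sign per kb. No paired analysis was possible because each group has 1 library, and no library could be left out for the same reason. Low tag counts limit the regions found in 1 library alone, since the tables list no tags below the calling limit.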

Other observations

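The transcript span of Mbd2 held a further H3K4me3 region that the lists assign to AK085760 and that was not counted above. It began 53.5 kb downstream of the Mbd2 start, and went from 493 tags over 2889 bp in diluent to 194 tags over 1798 bp in SAHA. The log2 ratio was -1.28 (interval -1.53 to -1.04), and -0.60 per kb, past the 2-fold level that 1.01% of paired regions reached downward. The Mbd2 promoter had -0.19.

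Upstream of Dnmt3a, a region assigned to BC048080, 13.9 kb from the nearest Dnmt3a start, had 159 tags in diluent and 199 in SAHA (log2 0.39, interval 0.08 to 0.70, and 0.32 per kb). The nearest regions of other genes beside Dnmt1 (S1pr2, -0.09), Uhrf1 (Plin3, 0.01) and Mbd2 (Poli, -0.04) had intervals that included 0, and the one beside Dnmt3b (Commd7) had -0.29 (interval -0.43 to -0.16).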
